A study of Mus musculus with 8 samples.

Results

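Open chromatin that was called in every population was examined inside the bodies of protein-coding genes, in primary marrow progenitors of C57BL/6 mice that were wild type. The regions were chosen from the peak calls themselves. Peaks of 8 ATAC-seq libraries were merged where they overlapped or touched, and a region was kept if at least 1 base was covered by an F-Seq peak in all 8 lists, if it lay wholly inside a protein-coding gene and if it was over 1 kb from both ends of every annotated gene. Of 207739 merged regions 39641 were called in all 8 libraries, and 13599 of these (34.3%) met the rule and are called constant intragenic regions here. A further 15364 constant regions lay at gene ends, and 10678 lay away from gene ends and outside protein-coding bodies.

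ATAC-seq, in which a transposase cuts and tags accessible DNA, was performed on 4 sorted populations of common myeloid progenitors with 2 libraries each and 40000 to 50000 cells per library. All cells were sorted as KIT+ and CD16/32-. C2 was also CD34bright, CD41+ and CD9+, and C13 was CD34dim but CD41- and CD9-. C18 and C10 were both CD34dim, CD41+ and CD9+, and they differed in CD48, which was dim on C18 and bright on C10. The series' design text names partly other clusters (C10, C11, C17 and C3) than the sample titles used here, so the surface markers of each sample, and not the cluster name, say what it is. The labels leave it unsaid whether different mice were used for the libraries of a population, so each p-value reflects only differences among these preparations, which may be technical.

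As background, accessible sites inside genes include enhancers, which act on the gene that holds them or on a neighbour, insulator sites, and promoters of shorter transcripts that begin within the gene. Vertebrate promoters are often rich in the dinucleotide CG, whereas enhancers of blood cells commonly carry GATA, RUNX and ETS motifs. In myeloid progenitors several master regulators, among them Runx1 and Mef2c, have more than 1 start site.

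To show the range of sequence at starts whose regions are described below, the 100 bases before 8 internal transcript starts are printed 5′ to 3′ on the strand of the gene, with each CG dinucleotide in capitals. They come from RefSeq (GRCm38.p6, the assembly of mm10). Mef2c and Steap3 held some of the most strongly ranked constant intragenic regions and are shown with Elf1, whose region hardly varied. Runx1, Ldb1, Kmt2d and Arid1a had regions stronger in C18 than in C10, and the region of Foxp1 was stronger in C13.
Mef2c: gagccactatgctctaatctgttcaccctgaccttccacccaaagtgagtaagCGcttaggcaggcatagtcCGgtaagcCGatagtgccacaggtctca
Steap3: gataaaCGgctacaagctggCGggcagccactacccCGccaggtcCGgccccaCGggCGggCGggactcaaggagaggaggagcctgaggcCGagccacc
Elf1: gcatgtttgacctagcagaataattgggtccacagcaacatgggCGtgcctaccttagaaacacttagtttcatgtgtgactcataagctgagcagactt
Runx1: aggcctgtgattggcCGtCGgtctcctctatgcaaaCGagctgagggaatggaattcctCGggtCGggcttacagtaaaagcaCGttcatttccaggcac
Ldb1: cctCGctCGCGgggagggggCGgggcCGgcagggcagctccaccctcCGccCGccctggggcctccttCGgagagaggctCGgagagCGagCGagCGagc
Kmt2d: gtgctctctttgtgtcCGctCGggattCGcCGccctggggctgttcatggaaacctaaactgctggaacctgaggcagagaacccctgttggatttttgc
Arid1a: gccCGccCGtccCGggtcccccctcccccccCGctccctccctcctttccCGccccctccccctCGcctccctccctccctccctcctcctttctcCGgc
Foxp1: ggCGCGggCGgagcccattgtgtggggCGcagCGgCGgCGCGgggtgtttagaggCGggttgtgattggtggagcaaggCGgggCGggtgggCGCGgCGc
The stretches lie at chr13:83573507-83573606 (Mef2c, plus strand), chr1:120265287-120265386 (Steap3, minus), chr14:79515574-79515673 (Elf1, plus) and chr16:92697330-92697429 (Runx1, minus). The others lie at chr19:46039622-46039721 (Ldb1, minus), chr15:98871206-98871305 (Kmt2d, minus), chr4:133753986-133754085 (Arid1a, minus) and chr6:99028299-99028398 (Foxp1, minus). In the 300 bases from 250 before to 50 after each start, Mef2c had 4, Steap3 16 and Elf1 3 CG dinucleotides. The same window held 35 in Runx1, 23 in Ldb1, 27 in Kmt2d, 36 in Arid1a and 44 in Foxp1.

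Each F-Seq list held exactly 100000 peaks in falling order of signal, so a region's best rank (1 for the strongest peak) has the same scale in all libraries but is relative to the other peaks of its list. The lists covered 62.5 and 78.9 Mb in C18 and between 88.8 and 101 Mb in the other 6 libraries. The second caller, HOMER, listed 72379 and 83548 peaks in C18 and between 171712 and 260118 elsewhere. C18 thus stood apart in both callers. Several results that rest on it are also given without it, but the contrast of C10 with C18 cannot be. Sequencing depth is unknown, since neither caller's list gives reads.

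The constant intragenic regions were spread over 6005 of 21887 protein-coding genes. In 3195 genes there was 1 such region, and 114 genes held 10 or more. Their genes were long, with a median of 97.2 kb against 17.2 kb over all protein-coding genes, and 127 regions lay in more than 1 gene. The merged regions had a median width of 1484 bases, with quartiles at 1102 and 2066 and a range from 433 to 11650. The gene with the most was Pde4d, which encodes a cyclic AMP phosphodiesterase, with 31 of its 130 internal regions called in every library. Gse1 and Nav2 followed with 27 each, then Zfhx3 (25), a homeobox and zinc finger factor, Arhgap26 (22), Foxp1 (20), Arid1b and Etv6 (19 each), Fry (18) and Nfia (18). Foxp1, Etv6 and Nfia encode transcription factors active in blood cells, and Arid1b encodes a chromatin remodelling subunit. Whether a region lay in an exon or an intron was not analysed here.

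Where the strand of the gene was known, for 10678 regions, the centre of a constant intragenic region lay at a median of 47.4% of the gene length from its start. The distribution along the gene was nearly flat for most of them and for internal regions called in 1 to 7 libraries, as the plot of position inside the gene shows. It was not flat for those at an internal transcript start, of which 41.4% lay in the first 25% of the gene and 5.86% in the last 25%.

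**Figure D1:**
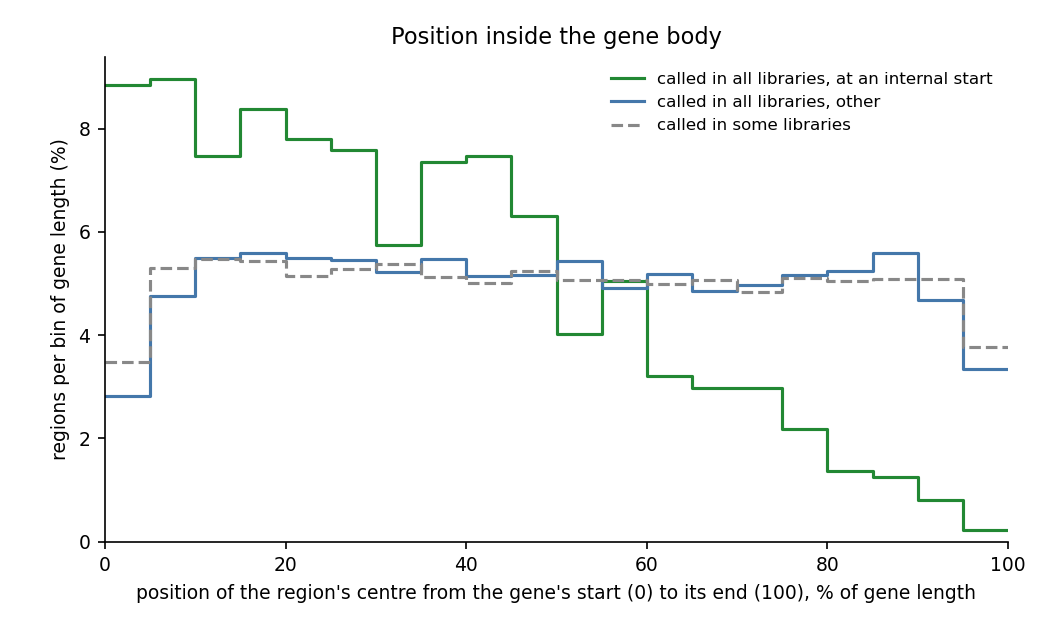
Share of regions in each bin of 5% of the gene length (y axis) against the position of the region's centre from the start to the end of its gene (x axis, %). Regions at an internal start are concentrated in the first part of the gene (8.84% in the first bin), while other constant and non-constant internal regions are spread evenly apart from the first and last bins, where the distance of 1 kb from gene ends removes regions.

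Position within the region was stable in most of them. In 9775 constant intragenic regions (71.9%) every list held a single peak, and the positions of the strongest point in the 8 libraries spanned a median of 78 bases, against 76 at gene ends. In 59.2% they lay within 100 bases of each other. Rank varied too: the weakest rank of a region was a median of 3.05 times the strongest, with quartiles at 2.30 and 4.50 (gene ends 3.18). All 8 ranks were within the first 10000 for 564 regions (4.15%, against 21.2% at gene ends), and 1164 (8.56%) fell beyond 90000 in at least 1 library.

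Among regions with a median rank within the first 10000 a few hardly varied. In Map3k20, a stress kinase gene, the ranks were 10391 and 8911 in C2, 10772 and 11772 in C18, 8902 and 9501 in C13, and 9934 and 8933 in C10. They span 1.32-fold, and C18 lay just below the other 3 populations, which overlapped. Jdp2, whose product is a repressor of AP-1 sites, ranked 11660 and 9182 in C2, 9893 and 9474 in C18, 11141 and 9232 in C13, and 11645 and 8142 in C10. All populations overlapped there, and the span was 1.43-fold. Impact, Fbxo9 and Itpkb completed the 5 narrowest ranges within that limit, at 1.37, 1.46 and 1.49-fold.

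The region with the best median rank was a stretch of 953 bases in Zfp804b, ranked 1 and 1 in C2, 7 and 4 in C18, 81 and 1395 in C13, and 16 and 44 in C10. It was near the top of every list, but the 2 C13 libraries were far from each other. A region of Stxbp4 behaved similarly, ranked 2 and 2 in C2, 12 and 5 in C18, 65 and 2312 in C13, and 55 and 45 in C10. In Uggt2, which encodes a glycoprotein glucosyltransferase, the ranks were 18 and 23 in C2, 75 and 65 in C18, 3 and 4 in C13, and 8 and 1 in C10. There C18 was weakest and overlapped no other population. Ppa2, Steap3, Asah1, a region shared by Spaca6 and Has1, Arhgap10, Mef2c and Panx1 completed the 10 best, and each of these was weaker in both C18 libraries than in any C10 library. Steap3, an iron reductase of erythroid precursors, ranked 108 and 107 in C2, 883 and 809 in C18, 51 and 62 in C13, and 141 and 119 in C10, so that no populations overlapped.

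In every library the constant intragenic regions ranked below those at gene ends. Their median rank was 25873 ± 354 in C2, 28750 ± 839 in C18, 29749 ± 24.7 in C13 and 24878 ± 508 in C10 (SD, n = 2), and that of gene ends was 13479 ± 351, 12755 ± 331, 19576 ± 76.4 and 17290 ± 61.5. The intragenic rank number was on average 1.75-fold higher, in 8 of 8 libraries (exact sign-flip permutation test, two-sided, p = 0.00781, the smallest it can give, adjusted p = 0.0159 over 10 tests of library medians). The same regions were ranked in all 8 libraries and the rule depends on width, so this test cannot separate the difference from the rule. Best rank is taken over all peaks of a region, and regions at gene ends held more of them. Their mean was 1.12 to 1.30 peaks per library, against 1.07 to 1.16 in intragenic regions, and the part of this in rank was not tested. The gap differed between populations (exact permutation test over all pairings of libraries, one-sided, p = 0.00952, the smallest it can give, adjusted p = 0.0159). On the log2 scale it was widest in C18, at 1.12 and 1.23, then C2, at 0.93 and 0.95. It was 0.61 and 0.60 in C13, and 0.55 and 0.50 in C10. Without C18 the same exact test gave p = 0.0667, the smallest that 6 libraries can give. Against constant regions outside gene bodies the ranks were nearly equal, with the intragenic number 0.971 times the other and lower in 7 of 8 libraries (exact sign-flip, p = 0.0391, adjusted p = 0.0391). That exact test lost significance without C2 replicate 2, either C18 library or either C13 library (p = 0.0781 each).

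The medians also differed between populations, with the best ranks in C10 and C2 and the weakest in C13 (exact permutation test over pairings, one-sided, p = 0.00952, adjusted p = 0.0159). The median number of covered bases was 1025 ± 11.3 in C2, 741 ± 103 in C18, 1032 ± 19.1 in C13 and 1065 ± 43.1 in C10. Scaled to the mean total covered length it was 1018 ± 3.10, 936 ± 24.0, 927 ± 2.80 and 980 ± 3.02 bases (exact permutation test of the scaled widths, one-sided, p = 0.0286, adjusted p = 0.0317; unscaled p = 0.0571). Intragenic regions were 1.62-fold narrower than those at gene ends and 1.10-fold wider than those outside gene bodies, each in 8 of 8 libraries (exact sign-flip, p = 0.00781, adjusted p = 0.0159). The rule itself depends on width, since a region that reaches within 1 kb of a gene end counts as one at gene ends. The same regions were measured in all 8 libraries, so the sign-flip test cannot separate a width difference from the rule.

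HOMER, which the choice of regions did not use, had a peak in 94.8% ± 1.98 of the constant intragenic regions in C2, 72.3% ± 1.68 in C18, 97.7% ± 0.036 in C13 and 98.3% ± 0.770 in C10 (SD, n = 2). The share was lowest in both C18 libraries, whose HOMER lists were also the shortest (exact permutation test over pairings, one-sided, p = 0.0190, adjusted p = 0.0238). Over all regions called in a library the shares were 77.8%, 43.2%, 94.6% and 92.9%. HOMER found a peak in all 8 libraries for 7735 regions (56.9%) and in none for 41.

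**Figure D2:**
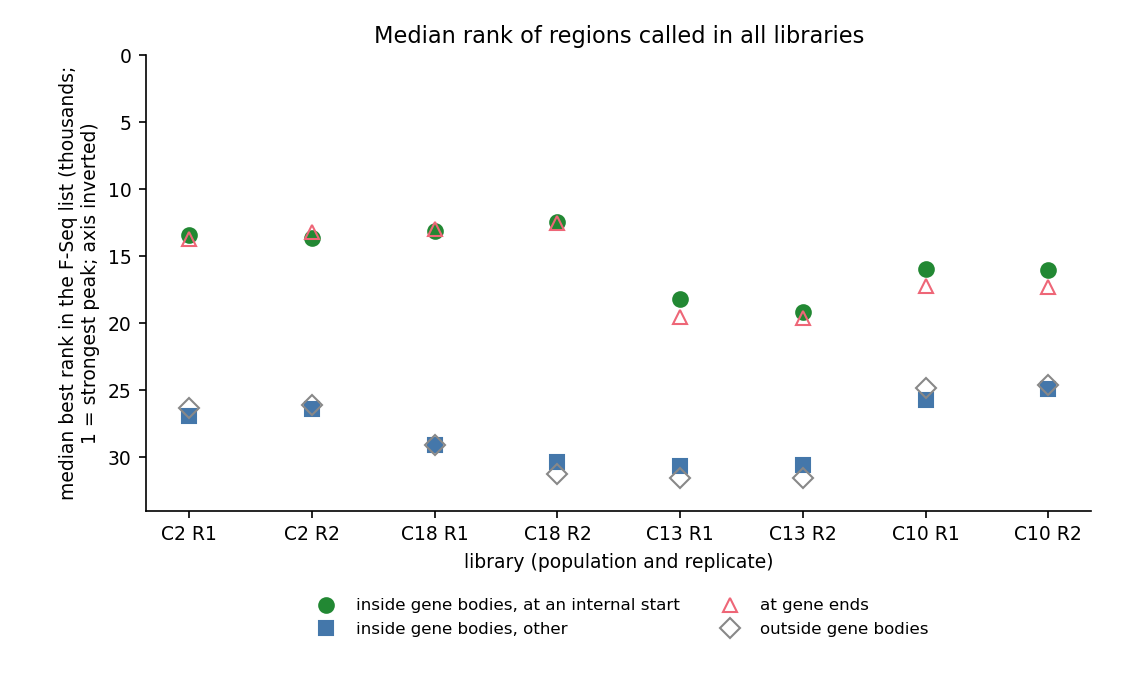
Median best rank in the F-Seq list (y axis, rank divided by 1000, inverted so that strong is up) in each library (x axis) for constant regions by place. Regions at internal starts follow those at gene ends, near 12468 to 13616 in C2 and C18 and between 15938 and 19195 in C13 and C10, while other intragenic regions lie between 24914 and 30698 with those outside genes.

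Constant intragenic regions contained annotated transcript starts more often than other internal regions did. An internal start lay in 886 of them (6.52%), and for 873 it was a start of the gene that holds the region. Of 81642 internal regions called in 1 to 7 libraries, 439 (0.538%) held one. The constant regions were also wider, with a median of 1484 bases against 565, and a wider region has more room for a start. The part of width in this difference was not tested. Regions at internal starts ranked at 13536 ± 113 in C2, 12796 ± 464 in C18, 18695 ± 707 in C13 and 15973 ± 49.5 in C10 (SD, n = 2), and other intragenic regions ranked at 26689 ± 382, 29732 ± 884, 30658 ± 56.6 and 25329 ± 587. The former were 1.86-fold nearer the top, in 8 of 8 libraries (exact sign-flip, two-sided, p = 0.00781, adjusted p = 0.0159). The difference was widest in C18, at 1.15 and 1.28 on the log2 scale against 0.69 and 0.64 in C10 (exact permutation test over pairings, one-sided, p = 0.0190, adjusted p = 0.0238; without C18 p = 0.133). Regions at internal starts were also wider than other intragenic regions, with medians of 2241.5 and 1452 bases, and the part of width in rank was not tested. This division by internal starts was chosen after the values had been seen.

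The starts in constant intragenic regions had more CG at the median than those in internal regions called in fewer libraries or in no region, though single ones ranged widely, as Elf1 and Arid1a show. The RefSeq table held 3803 starts inside protein-coding genes and over 1 kb from gene ends. Of these, 1042 lay in a constant intragenic region, with a median of 15 CG dinucleotides per 300 bases and a GC content of 58.3%. The 556 in regions called in 1 to 7 libraries had a median of 6.5, the 1598 in no region 4 and the 607 in constant regions that reach a gene end 19. Over all 32851 starts of the table the median was 7. Several starts can share a region, so these windows are not independent.

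A set of 3 short sequences, none of which contains another, was searched on both strands of the same windows. GATAA has the letters of common GATA factor sites, TGTGGT those of RUNX sites, and CCGGAAG those of ETS sites. GATAA was present at 18.4% of the starts in constant intragenic regions, against 25.4% of all starts, and TGTGGT at 15.2% against 16.8%. CCGGAAG was present at 10.7%, against 8.86%. Of internal starts in no region 31.6% held GATAA, 19.4% TGTGGT and 1.5% CCGGAAG.

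Rank differences were next tested in each region with limma, on log2(100000/rank) so that a positive difference means a stronger rank, in a single fit over all 39641 constant regions with Benjamini-Hochberg adjustment over all of them. A region missing from any list is excluded by the rule, so differences that end in absence do not appear here. At least 1 difference among the populations passed in 6396 of 13599 constant intragenic regions (47.0%, moderated F test), and the background over all constant regions was 48.8%. Without C13 replicate 1 or 2 the count was 4249 or 4049. The 3 contrasts below share the C10 and C18 libraries.

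The first contrast set C13, the population without CD41 and CD9, against the mean of C10 and C18. Of the constant intragenic regions 2387 were stronger and 2273 weaker in C13 (34.3% together), where 33.2% of all constant regions passed, 13.3% as stronger and 19.9% as weaker. The median difference was -0.14 (all constant regions -0.26). Among regions that passed, the median change was 2.68-fold in those stronger and 2.34-fold in those weaker, and 570 and 337 changed over 4-fold. When the constant regions were ranked again among themselves the split was 2854 stronger to 1556 weaker, and without C18 it was 1863 to 2860. Without C13 replicate 1 it was 1449 to 1028, and without C13 replicate 2 it was 1283 to 910.

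Several of the largest differences placed a region near the top of the C13 lists alone. A region of 1445 bases in Cep170, which encodes a centrosomal protein (chr1:176732133-176733577), ranked 37193 and 24428 in C2, 59749 and 59488 in C18, 444 and 483 in C13, and 16050 and 12442 in C10. Both C13 ranks were far above all others, and the C13 difference was 5.97 ± 0.29 (SE) on the log2 scale (limma adjusted p = 1.89e-08). In Mogat1, whose product makes diacylglycerol, the ranks were 5164 and 6129 in C2, 13330 and 12042 in C18, 93 and 72 in C13, and 2426 and 1498 in C10. The order C13, C10, C2, C18 held without overlap, and the difference between C13 and the mean of C10 and C18 was 60.1-fold (adjusted p = 5.17e-08). A region of Ank2, which encodes an adaptor of the membrane skeleton, ranked 4581 and 6257 in C2, 40895 and 20214 in C18, 123 and 129 in C13, and 2586 and 1807 in C10. It followed the same order, with a 62.6-fold difference (adjusted p = 5.70e-08). Trim36, Pepd, Rnf122, Hs3st1, Mtmr7, Celf4 and Pcca had the other smallest p-values in this direction, at 27.1 to 98.2-fold.

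Other regions were weak in C13 alone. In Rbfox1, the gene of a splicing regulator best known from neurons and muscle (chr16:7218066-7219608), the ranks were 12887 and 15338 in C2, 3476 and 4108 in C18, 74775 and 95679 in C13, and 1563 and 2180 in C10. No populations overlapped, and C13 was 32.0-fold weaker than the mean of C10 and C18 (limma adjusted p = 5.4e-08). A region of Itga4, the integrin alpha chain that binds VCAM1, ranked 4393 and 3342 in C2, 8297 and 5344 in C18, 84487 and 70797 in C13, and 2087 and 2649 in C10. It was near the end of both C13 lists, 19.5-fold weaker (adjusted p = 2.13e-07). Pcdh7, Gulp1, Dlgap1, Acacb, Plscr2, Clcn3 and Cped1 were also named, at 17.6 to 122-fold. The 122-fold value was that of Acacb, whose ranks are given below. Its region was near the top of both C18 lists and far lower in C10. The mean of C10 and C18 there rests largely on C18, and the gap between C13 and C10 was much smaller.

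**Figure D3:**
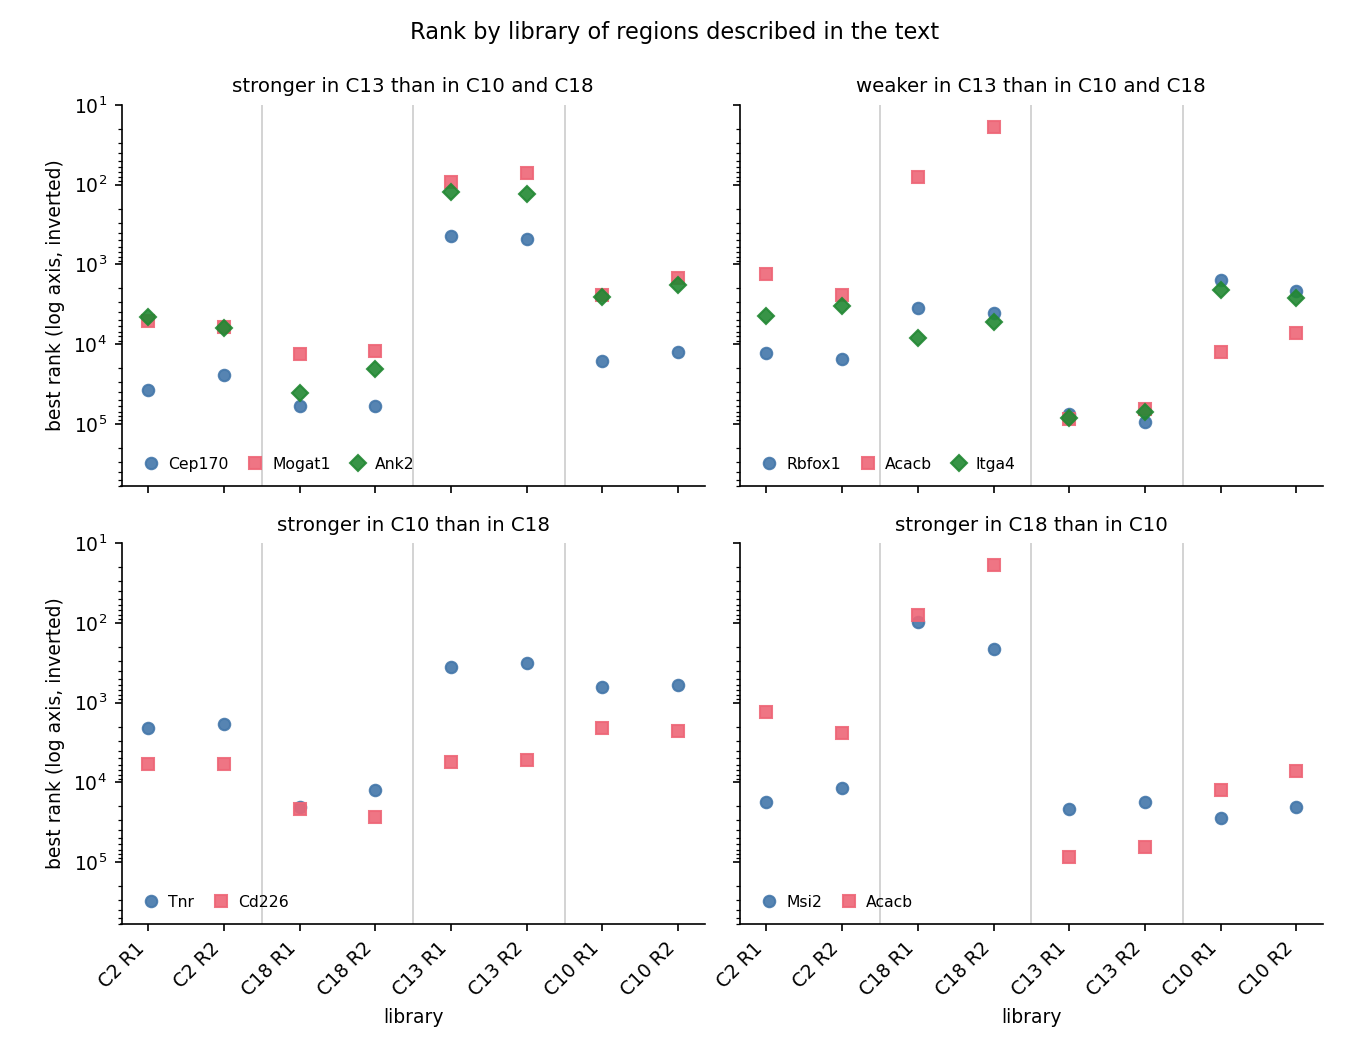
Best rank in each library (log y axis, inverted so that strong is up; x axis, library) of constant intragenic regions described in the text for 2 contrasts. Points are single libraries and lines separate populations. C13 stands apart in the upper panels, as in Cep170 (444 and 483) and Rbfox1 (74775 and 95679), and C18 in the lower panels, as in Msi2 (99 and 211).

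The second contrast set C10 against C18, which differ in CD48. C18 also had the smaller covered length and fewer HOMER peaks, so CD48 and these list differences cannot be told apart here. Here 2895 constant intragenic regions were stronger in C10 and 951 were stronger in C18 (28.3% together), where 33.0% of all constant regions passed, 18.5% as stronger in C10 and 14.6% as stronger in C18. The median difference was 0.27 (all constant regions 0.12), and it was 0.09 when the constant regions were ranked again among themselves (all constant regions -0.002). Changes that passed had a median of 2.66-fold towards C10 and 2.43-fold towards C18. The split was 1406 to 292 without C10 replicate 1, 1562 to 466 without C10 replicate 2, 3754 to 1474 without C18 replicate 1 and 3269 to 1457 without C18 replicate 2.

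The direction depended on the place of the region. Of those at internal starts 121 were stronger in C10 and 195 in C18, whereas of the other intragenic regions 2774 were stronger in C10 and 756 in C18. At gene ends 1867 were stronger in C10 and 4255 in C18. The starts in regions stronger in C18 had a median of 22.5 CG dinucleotides per 300 bases and a GC content of 62.0% (254 starts), and those in regions stronger in C10 had 10 and 53.3% (136 starts). CCGGAAG, which itself contains a CG, was present at 16.1% of the former and 8.09% of the latter. TGTGGT was present at 12.2% and 20.6%, and GATAA at 18.1% and 19.9%. The part of base composition in the rank differences was not tested. In the first contrast the starts in regions stronger in C13 had a median of 6.5 CG (82 starts, TGTGGT at 29.3%). Those in regions weaker in C13 had 17 (222 starts, TGTGGT at 11.3%). GATAA was present at 18.3% of the former and 23.0% of the latter, and CCGGAAG at 4.88% and 11.3%.

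**Figure D4:**
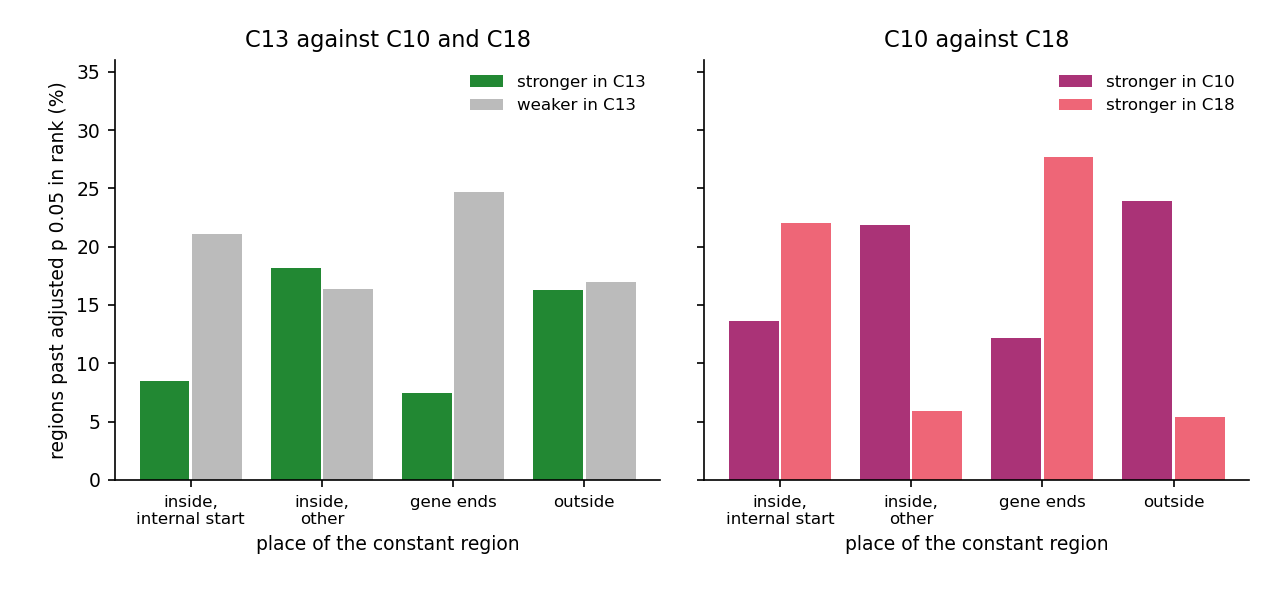
Share of constant regions past an adjusted p of 0.05 in rank (y axis, %) by place (x axis), for C13 against C10 and C18 (left) and C10 against C18 (right). Bars show the 2 directions. Regions at internal starts and at gene ends were more often stronger in C18 (22.0% and 27.7%), and other intragenic regions and those outside genes more often stronger in C10 (21.8% and 23.9%).

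Regulators whose internal starts are printed above illustrate this. At the Runx1 start, in the gene of the core-binding factor needed for definitive blood formation, the region (chr16:92696383-92700470) ranked 11038 and 13910 in C2, 8208 and 8146 in C18, 29302 and 21766 in C13, and 29869 and 30281 in C10. The order C18, C2, C13, C10 held without overlap, and the difference between C10 and C18 was -1.88 (limma adjusted p = 0.000557). The region in Ldb1, whose product bridges GATA1 and TAL1 complexes, ranked 18679 and 12201 in C2, 9449 and 10695 in C18, 31369 and 33323 in C13, and 35531 and 37089 in C10. It had the same order, also without overlap, and a difference of -1.85 (adjusted p = 0.000719).

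Kmt2d encodes a histone H3 lysine methyltransferase, and its region ranked 16107 and 11481 in C2, 9202 and 8789 in C18, 47037 and 47510 in C13, and 33214 and 33546 in C10. Arid1a, a subunit of the BAF remodelling complex, had ranks of 22870 and 18634 in C2, 6101 and 7094 in C18, 49572 and 33507 in C13, and 59482 and 31520 in C10. Both were strongest in C18, by 1.89 and 2.72 on the log2 scale over C10 (adjusted p = 0.00051 and 0.000111).

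CG-poor starts did not all move together. The Mef2c region, over a start in the gene of a factor that acts in myeloid and lymphoid progenitors (chr13:83569491-83575447), ranked 319 and 231 in C2, 1108 and 1510 in C18, 27 and 10 in C13, and 219 and 251 in C10. It was strongest in C13 and weakest in C18, with a C13 difference of 5.07 (limma adjusted p = 3.51e-06). Elf1, an ETS family gene, ranked 11120 and 11235 in C2, 13156 and 10972 in C18, 12103 and 10801 in C13, and 14318 and 11431 in C10. C10 lay just below C2, and all other pairs of populations overlapped (limma adjusted p of the F test 0.936). The CG-rich Foxp1 region ranked 26416 and 24129 in C2, 38404 and 58341 in C18, 20089 and 17318 in C13, and 41061 and 45039 in C10. It was strongest in C13, by 1.27 (adjusted p = 0.00313), although its sequence is richer in CG than that of Runx1 or Ldb1.

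The largest differences towards C18 lay in Msi2 and Acacb. Msi2 encodes an RNA-binding protein of blood stem cells, and its region of 1589 bases ranked 17750 and 11742 in C2, 99 and 211 in C18, 21683 and 17582 in C13, and 27988 and 20705 in C10. Only C18 was near the top, 167-fold above C10 (limma adjusted p = 7.30e-08). In Acacb, the gene of an acetyl-CoA carboxylase of mitochondria, a region of 662 bases ranked 1322 and 2402 in C2, 80 and 19 in C18, 86030 and 64616 in C13, and 12440 and 7278 in C10. No populations overlapped, and C18 exceeded C10 by 244-fold (adjusted p = 1.83e-06, but 0.317 on a linear rank). Sp2, Hexim2, Fhad1, Pitpnc1, Taok1, Ubtf, Wdr20 and Fam163b followed at 6.96 to 18.03-fold. Of the 10 named, Sp2, Taok1, Ubtf and Wdr20 lay at internal starts, and Msi2, Sp2, Hexim2, Pitpnc1, Taok1 and Ubtf lie on chromosome 11.

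Towards C10, a region of Tnr, the gene of the matrix protein tenascin-R, ranked 2104 and 1886 in C2, 20589 and 12678 in C18, 355 and 321 in C13, and 645 and 606 in C10. C18 was weakest and C13 strongest, and C10 exceeded C18 by 25.8-fold (limma adjusted p = 5.80e-06). Cd226, the gene of an adhesion receptor of platelets and lymphocytes, ranked 5980 and 5983 in C2, 21832 and 27179 in C18, 5604 and 5309 in C13, and 2066 and 2248 in C10. Its populations did not overlap, with a difference of 11.3-fold (adjusted p = 9.49e-06). Ppfibp2, Slc16a14, Tcerg1l, Zswim2, Zfhx3, Slc24a3, Trim36 and Gpc5 were the others named, at 12.5 to 21.6-fold.

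Chromosome 11 differed from the rest in this contrast, which was noticed after the values had been seen. Its 763 constant intragenic regions had a median difference of -0.13, with 84 stronger in C10 and 135 (17.7%) in C18, while on the other chromosomes the medians were between 0.13 and 0.54. Their median ranks were 27274 and 27320 in C2, 29039 and 27731 in C18, 34651 and 31021 in C13, and 34548 and 30625 in C10. Elsewhere they were 26036 and 25498 in C2, 28112 and 29411 in C18, 29483 and 29626 in C13, and 24835 and 24213 in C10. The C10 libraries thus ranked below C18 on chromosome 11 and above it elsewhere. At gene ends chromosome 11 was also lowest, at -0.98. Gene content and base composition differ between chromosomes, and their part was not tested.

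**Figure D5:**
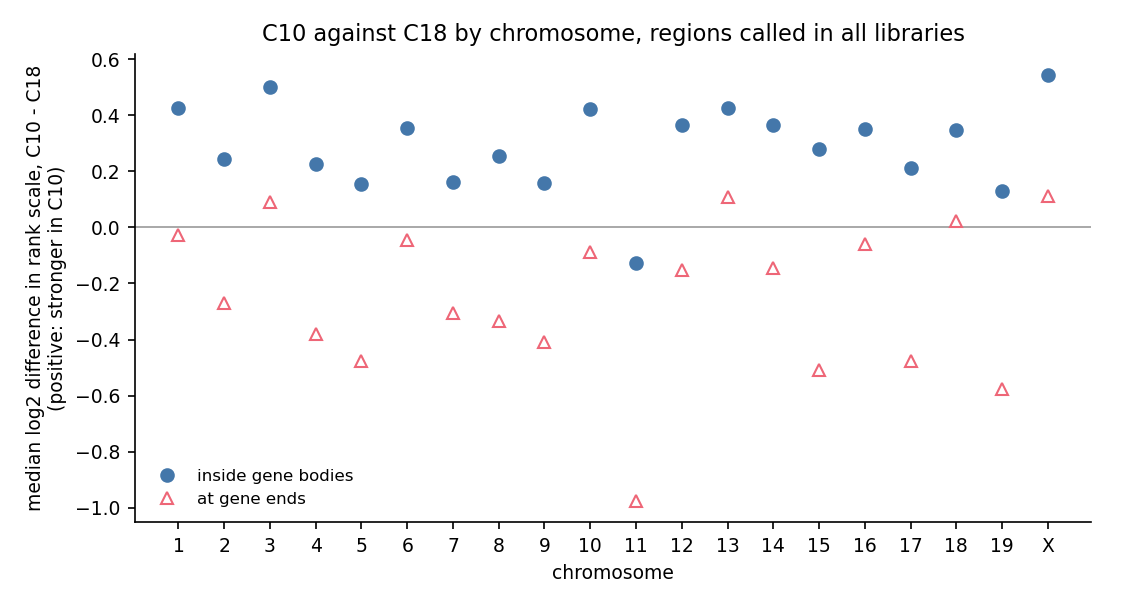
Median log2 difference in rank between C10 and C18 (y axis, positive where C10 is stronger) by chromosome (x axis) for constant regions inside gene bodies and at gene ends. Chromosome 11 is the lowest of both series, at -0.13 and -0.98, and the other intragenic medians are all above 0.

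The third contrast set C2, which is CD34bright, against the mean of C10 and C18. Only 19 constant intragenic regions were stronger and 13 weaker in C2, where 0.189% of all constant regions passed, 0.121% as stronger and 0.0681% as weaker (2438 of the intragenic regions had an unadjusted p under 0.05). This count rested on single libraries. It was 0 without C2 replicate 1 or 2 (limma, unadjusted p under 0.05 in 1445 and 2036), 3 to 2 without either C13 library and 0 to 1 without either C10 library. It was 1119 to 737 without C18 replicate 1 and 590 to 497 without C18 replicate 2. With ranks taken again among constant regions the split was 10 to 3, and C2 against C10 alone, without C18, gave 940 to 1538.

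Col25a1 and Etv6 were among those stronger in C2. The region of Col25a1, a membrane collagen gene, ranked 6534 and 8025 in C2, 52732 and 81756 in C18, 20184 and 27463 in C13, and 18742 and 15981 in C10. The region in Etv6, the gene of an ETS repressor of blood stem cells (chr6:134129612-134132272), ranked 3398 and 4246 in C2, 15947 and 13980 in C18, 30874 and 35279 in C13, and 12960 and 11363 in C10. C2 was strongest without overlap in both, by 4.66 and 3.54-fold over the mean of C10 and C18 (limma adjusted p = 0.0119 and 0.0272, lost without either C2 or either C10 library). Nhsl2, Slc24a3 (2 regions), Galnt9, Ext1, Tet1, Ltbp1 and Nme8 were the others named. On the weaker side were Msi2, Rbfox1, Tacc2, Mylk, Cdk14, Myo5b, Xrcc4, Immp2l and Ppp5c. The Msi2 region and a region of Slc24a3 changed sign when C18 was left out.

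Width was tested in the same way, on the log2 of the scaled covered bases. In C13 against C10 and C18, 73 constant intragenic regions were wider and 189 narrower (1.93%), where 1.62% of all constant regions passed, 0.563% as wider and 1.06% as narrower. In C10 against C18, 322 were wider and 138 narrower in C10 (3.38%), where 4.12% passed, 2.5% as wider and 1.62% as narrower. In C2 against C10 and C18 the limma count was 0, where 0.0% of all constant regions passed, with 1856 intragenic regions at an unadjusted p under 0.05. The largest such differences without overlap, given with no call, lay in Raver2, BC035044 and Adssl1 (wider in C2) and in C1galt1, Hmga2 and Kcnq1 (narrower). Over any population 598 passed (4.40%, background 4.57%). Unscaled widths gave 253 wider and 79 narrower in the first contrast and 2546 and 46 in C10 against C18. Without scaling the median of all constant regions moved from -0.07 to 0.20 and from -0.04 to 0.43.

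These width calls needed particular libraries. Without C13 replicate 1 or 2, or C10 replicate 1, the C13 contrast gave 0 in both directions (limma, unadjusted p under 0.05 in 1189, 1179 and 1883), and without C10 replicate 2 it gave 2 wider and 7 narrower. It gave 402 and 470 without C18 replicate 1 and 278 and 423 without C18 replicate 2. The C10 against C18 contrast gave 0 in both directions without C10 replicate 1 (unadjusted 1576), 1 and 0 without C10 replicate 2, 42 and 8 or 41 and 8 without a C13 library, and 887 and 433 or 740 and 447 without a C18 library. Of the regions called in width, 189 of 262 in the C13 contrast and 219 of 460 in C10 against C18 were also called in rank.

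A region of 11029 bases lay in Tbx15, a T-box factor gene. Its unscaled covered bases were 6447 and 6129 in C2, 721 and 1189 in C18, 9912 and 10044 in C13, and 9758 and 9675 in C10. C18 covered only a small part of it, and C10 was 7.62-fold wider than C18 after scaling (limma adjusted p = 0.00132). In Mecom, the gene of a stem cell factor, a region over an internal start covered 2135 and 1572 bases in C2, 308 and 402 in C18, 2242 and 2101 in C13, and 2757 and 2173 in C10. It too was narrow in C18 alone, by 5.05-fold against C10 (adjusted p = 0.00746).

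Narrowing in C13 was seen in Mbnl1, which encodes a splicing regulator, where a region covered 3108 and 3213 bases in C2, 1913 and 2780 in C18, 784 and 868 in C13, and 3338 and 3271 in C10. The scaled width in C13 was 4.03-fold lower than the mean of C10 and C18 (limma adjusted p = 0.00397). Zfpm1, the gene of the GATA1 partner FOG1, covered 4088 and 3471 bases in C2, 3563 and 4257 in C18, 1414 and 1529 in C13, and 2780 and 4077 in C10. C13 lay below the others in both genes, by 2.96-fold in Zfpm1 (adjusted p = 0.0107). Each named width call was lost under at least 1 of the alternatives tried.

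Gene lists for the cell types and functions of marrow were then read region by region. They were chosen with earlier results of these data known, some genes are in more than 1 list, and a region's presence in a list depends on its being called everywhere. The haematopoietic transcription factors held most regions, 206 in 27 of 37 genes, of which 35 were stronger and 39 weaker in C13, and 35 were stronger in C10 and 15 in C18 (35.9% and 24.3%, against 34.3% and 28.3% of all constant intragenic regions). Their median differences were -0.11 and 0.33, beside -0.14 and 0.27 over all constant intragenic regions. A region of Ikzf2, which encodes the zinc finger factor Helios, ranked 5276 and 7203 in C2, 26793 and 25549 in C18, 49988 and 53324 in C13, and 6924 and 7052 in C10. C13 was weakest, then C18, and C2 and C10 overlapped (C13 difference -1.93, limma adjusted p = 8.94e-05). A region of Mitf, whose product controls mast cell and pigment cell genes, had ranks of 11476 and 17137 in C2, 62819 and 41084 in C18, 1559 and 1858 in C13, and 12248 and 11834 in C10. C13 was strongest and C18 weakest, and C2 and C10 overlapped (C13 difference 3.86, adjusted p = 4.87e-07). Another Mitf region, over an internal start, had a C13 difference of the other sign that did not pass (-0.77, limma adjusted p = 0.0731).

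Stem and multipotent cell genes held 60 regions in 12 of 22 genes, with 10 stronger and 12 weaker in C13 (36.7%). Between C10 and C18, 17 were stronger in C10 and 2 in C18 (31.7%). Of all constant intragenic regions 34.3% and 28.3% passed in these contrasts. Flt3, the receptor of early lymphoid and myeloid progenitors, ranked 7213 and 8583 in C2, 27825 and 32975 in C18, 2648 and 1947 in C13, and 7069 and 8484 in C10. C13 was strongest and C18 weakest, and C2 and C10 overlapped (C13 difference 2.75, limma adjusted p = 5.45e-06). Among megakaryocyte genes, 43 regions lay in 16 of 30 genes, with 7 stronger and 9 weaker in C13 (37.2%, against the same 34.3%). In them 6 were stronger in C10 and 3 in C18 (20.9%, against the same 28.3%). Tubb1, the tubulin of platelets, ranked 12211 and 13029 in C2, 14231 and 8875 in C18, 84963 and 71572 in C13, and 8734 and 10227 in C10. Its C13 ranks were near the end of the list, and C18 overlapped both C2 and C10, which did not overlap each other (difference -2.92, adjusted p = 4.08e-06).

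Erythroid genes held 22 regions in 11 of 33 genes, of which 5 were weaker in C13 and none was stronger by limma (22.7%, against 34.3% of all constant intragenic regions). A region of Sptb, the beta spectrin of red cells, ranked 17719 and 22778 in C2, 16929 and 8040 in C18, 53585 and 45165 in C13, and 12036 and 10146 in C10. C13 was weakest, then C2, and C18 overlapped C10 (difference -2.12, adjusted p = 0.000174). Gypc and Rhag, which encode glycophorin C and a channel protein of the red cell membrane, had differences of -2.01 and -1.45 (adjusted p = 0.000268 and 0.00176). Granulocyte and monocyte genes held 11 regions in 7 of 29 genes, of which 5 were stronger in C13 and none was weaker by limma (45.5%, against the same 34.3%). They included Itgb2, the integrin beta chain of leukocytes (1.18, adjusted p = 0.00794), Cybb, a subunit of the phagocyte oxidase (1.14, adjusted p = 0.00601), and Csf1r, the macrophage growth factor receptor (2.35, adjusted p = 0.000204). These are few regions, and the lists were not tested as sets.

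Genes that mark other cell types also held constant intragenic regions. Mast cell, basophil and eosinophil genes held 22 regions in 7 of 19 genes (5 stronger and 5 weaker in C13, 45.5%). Lymphocyte genes held 24 in 10 of 28 (8 and 5, 54.2%), and macrophage genes 4 in 2 of 15 (3 and 1, 100%). Stroma and endothelium genes held 14 in 8 of 17 (3 and 5, 57.1%, median -0.32). Of all constant intragenic regions 34.3% passed in this contrast. Between C10 and C18 the lists, in this order, had 8, 9, 2 and 4 regions stronger in C10. Only the mast cell, basophil and eosinophil list had a region stronger in C18 (1). These are 40.9%, 37.5%, 50% and 28.6% of the lists, against 28.3% of all constant intragenic regions. Lef1, a factor of lymphoid cells, ranked 1659 and 1387 in C2, 7460 and 5921 in C18, 170 and 127 in C13, and 566 and 434 in C10. C13 was strongest, then C10, C2 and C18 without overlap (C13 difference 3.63, limma adjusted p = 2.57e-06). In Cdh5, the cadherin of endothelium, the difference was 4.03 (adjusted p = 6.99e-07), in 2 regions of Flt1, a VEGF receptor gene, it was -2.12 and -1.10 (adjusted p = 4.7e-05 and 0.00702), and in Mrc1, a macrophage receptor, it was 2.98 and 2.19 in 2 regions. The part of other cell types in these differences was not tested.

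Of the 13 lists, only chromatin regulators had more regions stronger in C18 than in C10 in this fit, which was not repeated for the lists under other scalings. They held 114 regions in 21 of 30 genes, with 20 stronger and 16 weaker in C13 (31.6%), and 8 stronger in C10 and 17 in C18 (21.9%, median -0.06). A region of the DNA methyltransferase gene Dnmt3a ranked 4315 and 3835 in C2, 6057 and 9209 in C18, 884 and 232 in C13, and 3028 and 2839 in C10. C13 was strongest and no populations overlapped (C13 difference 3.37, limma adjusted p = 3.68e-05). Blood cell signalling genes held 148 regions in 31 of 36 genes (28 stronger and 19 weaker in C13, or 31.8%, and 41 stronger in C10 and 9 in C18, or 33.8%), including Inpp5d, a lipid phosphatase (C13 difference 3.71), and the kinase genes Lyn (2.24) and Prkch (2.27). Long genes with no known role in blood, listed as a comparison, held 96 regions in 14 of 22 genes. Of these 14 were stronger and 24 weaker in C13, and 33 were stronger in C10 and none in C18 by limma, with a median of 0.72. These are 39.6% and 34.4% of the list, against 34.3% and 28.3% of all constant intragenic regions. Housekeeping genes held 3 regions in 3 of 24 genes, in Sdha, Pgk1 and Gusb, and only that of Sdha passed, as stronger in C10.

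The genes of the sorted proteins were looked up apart from the naming rule. None of Kit, Cd34, Cd9 and Fcgr3 held a constant intragenic region. The region in Cd48 ranked 27143 and 24306 in C2, 24797 and 15746 in C18, 42390 and 34979 in C13, and 37646 and 35990 in C10. It was stronger in the CD48dim population C18 than in the CD48bright C10, by 0.90 on the log2 scale (limma adjusted p = 0.0494). In Itga2b, which encodes CD41, 2 regions had differences of -0.41 and -0.74 between C13 and the mean of C10 and C18. Neither passed (limma adjusted p = 0.255 and 0.0586), and C2, which is also CD41+, is not in that contrast. Fcgr2b, which encodes CD32, ranked 18985 and 16660 in C2, 62410 and 70908 in C18, 22219 and 21631 in C13, and 18298 and 15310 in C10. C18 was weakest there and C2 and C10 overlapped (C10 over C18 1.99, adjusted p = 0.000313).

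The rule keeps regions on one side of 2 thresholds. Internal regions called in 7 libraries numbered 5457 and had a median of their median ranks of 50077, against 27548.5 for constant ones, and the missing library was most often C18 replicate 2 (2369) or C18 replicate 1 (1750). At the distance threshold, 203 regions lay up to 200 bases beyond it (median rank 26872), and 208 that fell short of it by less than 200 bases were left out (26670).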

How the data were processed

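ATAC-seq peak lists of 8 libraries were used, 2 for each of 4 populations. Bowtie 1.0.0, HOMER 1.0 and the build mm10 are named in the submitters' processing notes, without their roles. The version of F-Seq was not given in the sources used here. As deposited, the authors' F-Seq peaks carry a signal per peak (column 7, used only as a rank within its list), and their HOMER peaks carry a score per peak, which was not used beside the positions. The lists have no header lines. Nothing in those sources says how lists were limited to 100000 peaks or how deep the libraries were.

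Overlapping or touching peaks were merged, a region counted as called with at least 1 base under a peak, and gene bodies came from RefSeq (GRCm38.p6). Covered bases were multiplied by the mean covered length over the library's own. Differences were fitted with limma 3.58.1 (R 4.3.3) as 4 group means with a trended prior, over all 39641 constant regions, with Benjamini-Hochberg adjustment and a threshold of 0.05. Library medians were tested by exact sign flips and by exact pairings, adjusted over 10 tests. Tables were handled in Python 3.11.15 with pandas 2.3.3. Named regions were the 10 with the smallest p in each direction of each contrast, the 10 best median ranks, the 5 narrowest ranges, and up to 3 per gene list by smallest F-test p, beside the 10 genes with most regions; some results are not reported here. Members and lists were chosen with earlier results of these data known. The fit was also run on simulated data of 39641 regions. Their noise was normal, with a spread pooled over the 4 populations, smoothed by level and equal in all libraries. In C13, 100 regions were changed by 1 and 100 by 2 on the log2 scale. In rank the fit recovered 26% of the former and 99% of the latter, with 6.72% false calls. For width it recovered 49% and 100%, with 3.25% false calls. The real populations differed in spread and had far more called regions, so these rates may not hold for the real fit. Same-numbered libraries did not deviate together throughout (correlations of rank deviations from -0.018 to 0.334), so replicate numbers were not used as pairs in the main fit. The highest correlation was that of C13 with C10, and the others were at most 0.117. Counts with the replicate number as a block are given below.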

Additional observations from a re-analysis of the deposited data

How the results depend on the processing

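Without both C18 libraries the spread between population medians was 0.135 in log2 width (exact permutation p = 0.0667), 0.258 in log2 rank (p = 0.0667), 3.42 percentage points in HOMER share (p = 0.133), 0.314 for internal starts against other intragenic regions (p = 0.133) and 0.416 for intragenic regions against gene ends (p = 0.0667). With 6 libraries the smallest possible p is 0.0667. Unscaled widths gave 0.529 (exact permutation p = 0.0571). The regions numbered 6713 with the 50000 strongest peaks and 7735 when HOMER peaks in all 8 libraries were also required. Leaving out 1 library gave 13631 to 15968 regions, and leaving out both C18 libraries gave 20042. The difference in rank from regions outside genes was -0.051 to -0.035 when 1 library was left out.

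For rank in C2 the stronger and weaker counts were 940 and 1538 without C18, 10 and 3 when ranked again, and 0 and 0 on a linear rank (limma, 2247 at an unadjusted p under 0.05). Regions called in at least 2 libraries gave 31 stronger. In C13, 1571 were stronger among regions with 1 peak per list. Those stronger in C18 than C10 were 575 both with regions called in at least 2 libraries and on a linear rank, and 571 with 1 peak per list. For width, regions called in at least 2 libraries gave 222 wider and 90 narrower in C2. They gave 388 and 653 in C13, 525 and 332 in C10 against C18, and 1305 in any population. Unscaled widths gave 253 and 79, 2546 and 46, and 1906. The widest single peak gave 46 and 53, 214 and 50, and 292. Without C18, 32 were wider in C13 and 330 differed in any population.

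Leaving out 1 library gave ranges for rank of 0 to 1119 stronger and 0 to 737 weaker in C2. In C13 they were 1283 to 3087 and 910 to 3279, in C10 against C18 1406 to 3754 and 292 to 1474, and in any population 4049 to 9010. For width they were 0 to 194 wider and 0 to 45 narrower in C2. In C13 they were 0 to 402 and 0 to 470, in C10 against C18 0 to 887 and 0 to 447, and in any population 1 to 1515.

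The replicate block gave 34 wider and 113 narrower in C13, 197 and 69 in C10 against C18, and 251 in any population. For rank it gave 19 stronger and 12 weaker in C2, while C13 had 2447 and 2335, and C10 against C18 had 2996 and 976. The differences in C2 of Slc24a3 (chromosome 2, start 145187876) and Msi2 changed sign without C18, to -0.14 (limma adjusted p = 0.787) and 0.74 (adjusted p = 0.0768). Of 20 regions named for rank in C13, and of 20 in C10 against C18, 19 each were lost under none of the alternatives run (the exceptions were Rnf122 and Acacb, with adjusted p = 0.103 and 0.317 by limma on a linear rank), and none of 20 in C2 or of 20 in each width contrast was. The cause of these changes was not tested. Between libraries of a population, ranks differed by a median of 1.16-fold (C13) to 1.46-fold (C18), and the depth behind them is unknown.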

Other observations

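Single long genes differed in the direction of their constant intragenic regions, which was noticed after the values had been seen and was not tested. Of the 27 regions of Gse1, 2 were stronger and 9 weaker in C13, and 1 was stronger in C10 and 7 in C18 (limma, adjusted over all constant regions). Of the 20 regions of Foxp1, 5 were stronger in C13 and 3 in C10, and none was weaker in either contrast. Tiam1, which encodes an activator of the GTPase RAC, held 17, of which 10 were stronger in C10 and none in C18. In Trio, which encodes a related activator, 9 of 17 were stronger in C10 and none in C18. Over all 13599 constant intragenic regions, 2387 were stronger and 2273 weaker in C13 (34.3% together). Between C10 and C18, 2895 of them were stronger in C10 and 951 in C18 (28.3% together). Over all constant regions the shares were 33.2% and 33.0%.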
